A study of Homo sapiens with 6 samples.

Results

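The non-coding snoRNA host genes were followed after knockdown of RBM8A in AGS, an established line of human gastric adenocarcinoma cells. They were taken by name: every gene called SNHG (small nucleolar RNA host gene) followed by a number, together with GAS5, ZFAS1, EPB41L4A-AS1, LRRC75A-AS1 and LINC02001. This rule found 30 of the 58735 rows of the table, under 29 symbols, because SNHG28 has a row for each of its 2 gene identifiers. Cells labelled wild type were transfected with a control siRNA (siNC) or with one targeting RBM8A (siRBM8A), using Lipofectamine 2000, and were harvested 48 h later, with 3 biological replicates per group. The labels used here state neither the sequence nor the number of the siRNAs. The siRBM8A descriptions carry an extra 1 before the replicate number, whose meaning is not stated. Effects of an siRNA other than loss of RBM8A cannot be told apart from that loss. All cells came from 1 cell line, and all 6 libraries carry 1 batch label. RNA was selected for poly-A tails, and levels are FPKM, fragments per kilobase of exon, scaled per library. The divisor behind this scaling was 0.972 (siNC replicate 2) to 1.05 (siRBM8A replicate 1) times the library's gene-assigned fragments. It was thus not that depth alone, and how it was set is not stated. Such values allow for exon length and roughly for depth, while other differences may remain between the libraries. Their FPKM sums ran from 276383 (siRBM8A replicate 1) to 300270 (siNC replicate 2).

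Small nucleolar RNAs guide ribose methylation (box C/D) and pseudouridylation (box H/ACA) of ribosomal RNA. In human cells most of them are cut out of the introns of a host gene after splicing. Most non-coding hosts are known for spliced transcripts with short, poorly conserved reading frames whose stop codons lie upstream of exon junctions. Such transcripts, GAS5 among them, are textbook substrates of nonsense-mediated decay, the pathway that removes translated RNA with an exon junction complex downstream of the stop codon. RBM8A encodes Y14, which forms the core of that complex with MAGOH and EIF4A3.

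Each library held 14838527 to 16561306 gene-assigned fragments, and a floor of 3 fragments stood for at most 0.197 FPKM in a gene with 1 kb of exon. This floor covers counting error only. RBM8A went from a mean of 14.4 FPKM (SD 1.08, n = 3) to one of 2.95 FPKM (SD 0.630, n = 3), so 20.5% of the level remained. Limma gave it a log2 fold change (log2FC) of -1.97 with an SE of 0.142 and an adjusted p of 0.00544, and the exact two-sided permutation test gave p = 0.1, the smallest possible for 3 against 3 libraries. Of the 5 epithelial markers all reached at least 134 FPKM in every library. Of the 5 gastric products only TFF1 reached 1 FPKM, and GKN1, a stomach surface protein, was listed at 0 in every library. COL1A1, at 3.41 to 4.64 FPKM, was the only one of 9 fibroblast, leukocyte and endothelial markers to reach 1 FPKM.

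The label was checked against the annotation. In GENCODE 29, 28 of the 30 rows hold at least 1 snoRNA or scaRNA gene on their own strand, and 29 are classed as long non-coding RNA genes. GAS5, a well-known host of box C/D snoRNAs, and SNHG27 hold none in that annotation. The longer SNHG28 row (ENSG00000256029) is classed as protein-coding. Of the 30 rows, 23 averaged 1 FPKM or more over the 6 libraries and are called measured here.

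Non-coding hosts were more abundant in the RBM8A knockdown. Of the 23 measured hosts, 11 rose and 0 fell at an adjusted p under 0.05, against 2.41% of all 12678 tested genes called upward and 3.19% called downward (5.59% in either direction). At an unadjusted p under 0.05, 14 were higher and 0 lower, against 12.3% and 13.9% of all tested genes. Limma-voom on recovered fragments called 12 upward and 0 downward, against 3.29% and 4.01%. On the log2(FPKM + 1) scale the measured hosts had a median fold change of 0.60, beside -0.011 over all tested genes. The 11 were SNHG5, ZFAS1, EPB41L4A-AS1, SNHG7, GAS5, LRRC75A-AS1, SNHG6, SNHG8, SNHG26, SNHG15 and SNHG12, and 5 of them had a ratio of group means of at least 2. Of the names added to the SNHG pattern, all but LINC02001 were thus called. The hosts were chosen with earlier results of these data known, so the shares over all tested genes serve as description only. In 14 of the 23, the 11 among them, every siRBM8A library lay above every siNC library, which held for 14.8% of all tested genes. It follows from this separation that each of the 11 was also higher within each of the 3 replicate numbers, which adds no further support. A rise in all cells and a rise in a share of the cells cannot be told apart in these bulk libraries.

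**Figure D1:**
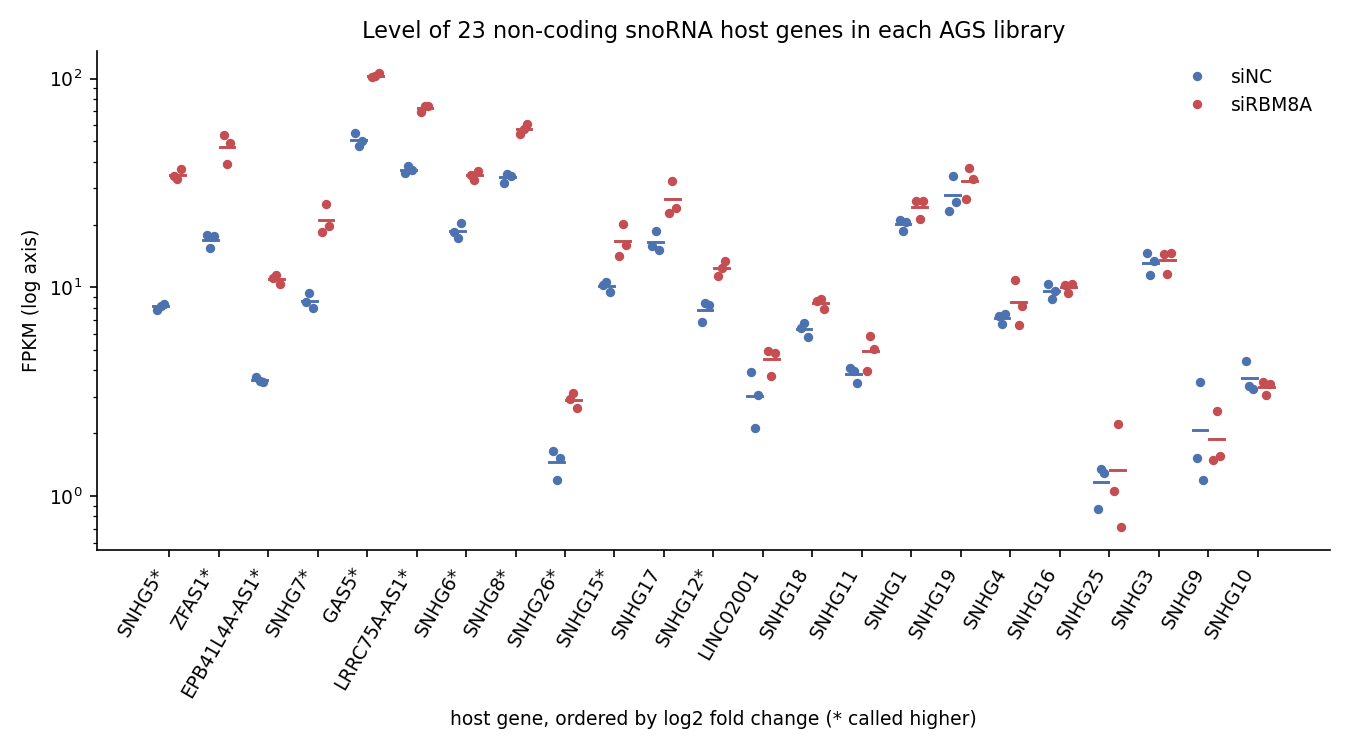
Level of the 23 measured host genes in each library, in FPKM on a log axis; points are libraries, horizontal bars are means of 3 libraries, siNC in blue and siRBM8A in red. The red points of SNHG5 sit at 33.0 to 36.8 FPKM, above its blue points at 7.80 to 8.34 FPKM, while the colours overlap in SNHG3, SNHG9 and SNHG10 at the right.

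Summed over all 30 rows, the hosts stood at 312 FPKM in siNC replicate 1, 316 in replicate 2 and 310 in replicate 3. The sums in siRBM8A were 541, 557 and 565 FPKM. The hosts' share of all FPKM was 0.106% ± 0.000603 in siNC and 0.194% ± 0.00257 in siRBM8A (mean ± SD, n = 3). The sum over the 11 called hosts went from 196 ± 1.83 to 413 ± 9.77 FPKM, and that over the 12 measured hosts without a call from 114 ± 4.84 to 140 ± 5.39 FPKM. These sums are descriptions and were not tested.

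SNHG5, the host of SNORD50B on chromosome 6, gave the smallest p of all 12678 tested genes and the second-highest log2 fold change. Its level was 7.80, 8.18 and 8.34 FPKM in the siNC libraries and 34.0, 33.0 and 36.8 FPKM in the siRBM8A libraries. The groups were far apart, with a ratio of means of 4.27, a log2 fold change of 1.97 (SE 0.0907) and an adjusted p of 0.00165. These levels rested on 364 to 391 fragments per siNC library and 1502 to 1622 per siRBM8A library. Among the measured hosts SNHG5 ranked 13 by its mean in siNC and 5 in siRBM8A, where it could not be separated from SNHG6, at rank 6, within the spread. SNHG5 (ENSG00000203875) lies on the minus strand at chr6:85660950-85678748 in GRCh38, with up to 9 exons in a transcript.

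EPB41L4A-AS1, the host of SNORA13, ranked 3 by p among all tested genes. It was at 3.70, 3.54 and 3.51 FPKM in siNC and at 11.1, 11.5 and 10.4 FPKM in siRBM8A. The spread within each group was small beside the gap (log2FC 1.39, SE 0.0875, adjusted p = 0.00435). The ratio of means was 3.06, and the log2(FPKM + 1) scale understates such a change in a low gene. EPB41L4A-AS1 (ENSG00000224032) lies on the plus strand at chr5:112160526-112164276 and has up to 3 exons, the fewest among the 11.

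ZFAS1, transcribed from the opposite strand at the start of ZNFX1 and host of the SNORD12 family, was at 17.7, 15.4 and 17.7 FPKM in siNC. In siRBM8A it was at 53.4, 38.9 and 49.2 FPKM, with replicate 2 the lowest. Its log2 fold change was 1.41 (SE 0.139, adjusted p = 0.0101). ZFAS1 (ENSG00000177410) lies on the plus strand at chr20:49278178-49295738.

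SNHG7, the host of SNORA17A and SNORA17B, was at 8.47, 9.37 and 8.0 FPKM in siNC and at 18.4, 25.2 and 19.6 FPKM in siRBM8A. Here replicate 2 of siRBM8A was the highest library (log2FC 1.19, SE 0.137, adjusted p = 0.0109). SNHG7 (ENSG00000233016) lies on the minus strand at chr9:136721366-136728184.

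GAS5 (growth arrest specific 5), whose RNA accumulates in growth-arrested cells, was the most abundant of the hosts in both groups. It stood at 54.7, 47.4 and 50.4 FPKM in siNC and at 101, 102 and 106 FPKM in siRBM8A. The groups did not overlap (log2FC 1.01, SE 0.0937, adjusted p = 0.00918), on 2745 to 6258 fragments per library. GAS5 (ENSG00000234741) lies on the minus strand at chr1:173863900-173868882 and has up to 13 exons, the most among the 11.

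LRRC75A-AS1, named SNHG29 in RefSeq and host of SNORD49A, SNORD49B and SNORD65, was second in level in both groups. Its values were 35.3, 38.2 and 36.3 FPKM in siNC and 69.2, 73.8 and 73.8 FPKM in siRBM8A, with no overlap (log2FC 0.96, SE 0.0882, adjusted p = 0.00918). SNHG8, the host of SNORA24, ranked 3 in both groups. It was at 31.7, 35.1 and 34.3 FPKM in siNC and at 54.2, 57.6 and 60.3 FPKM in siRBM8A (log2FC 0.75, SE 0.0940, adjusted p = 0.0130). The order of these 3 most abundant hosts was thus the same in both groups.

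SNHG6, the host of SNORD87 on chromosome 8, rose from 18.4, 17.2 and 20.4 FPKM to 34.7, 32.6 and 36.0 FPKM (log2FC 0.85, SE 0.101, adjusted p = 0.0116). SNHG26, the host of SNORD93, was the lowest of the called hosts. It was at 1.65, 1.19 and 1.53 FPKM in siNC and at 2.94, 3.12 and 2.65 FPKM in siRBM8A, on 50 to 133 fragments per library (log2FC 0.67, SE 0.122, adjusted p = 0.0313). Its groups did not overlap.

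SNHG15, the host of SNORA9, was at 10.3, 10.6 and 9.51 FPKM in siNC and at 14.1, 20.1 and 15.9 FPKM in siRBM8A. Its call was the narrowest of the 11 (log2FC 0.65, SE 0.139, adjusted p = 0.0458). SNHG12, which holds SNORA44, SNORA61 and SNORD99, was at 6.82, 8.42 and 8.23 FPKM in siNC and at 11.3, 12.3 and 13.4 FPKM in siRBM8A (log2FC 0.60, SE 0.115, adjusted p = 0.0360). In both genes all siRBM8A libraries lay above all siNC libraries.

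**Figure D2:**
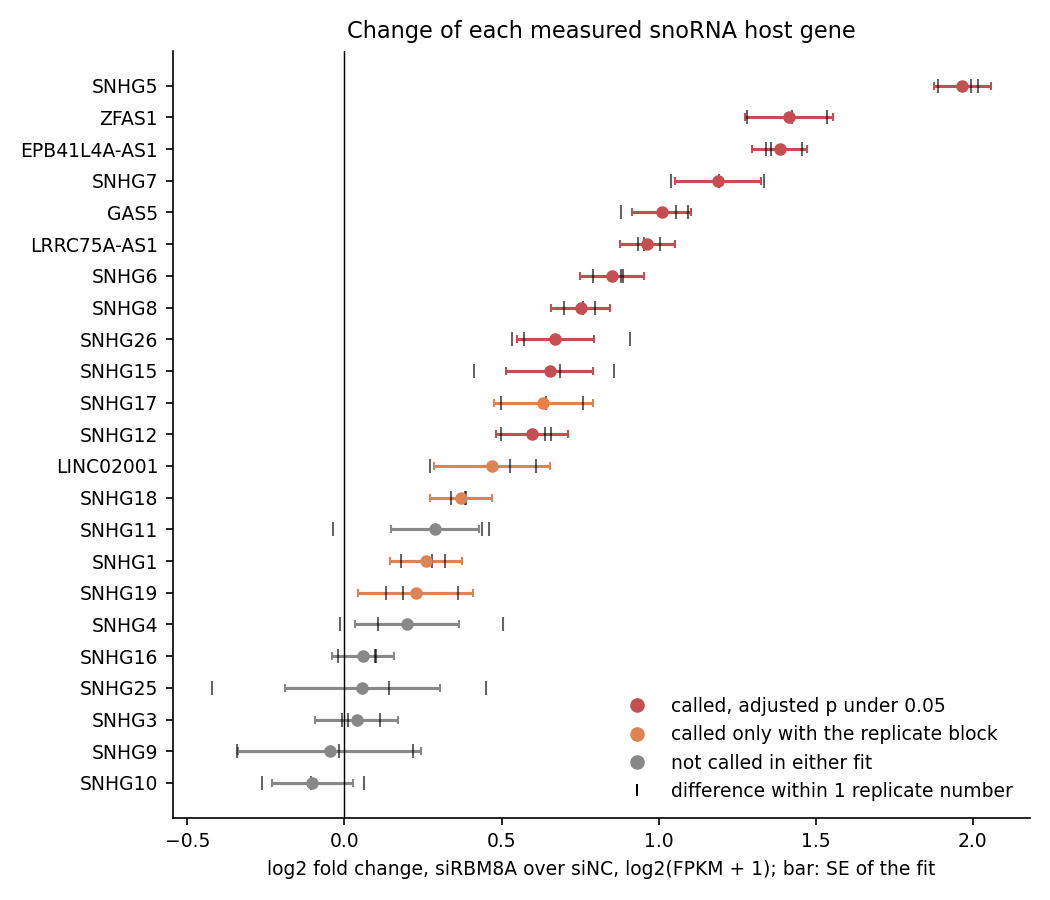
Log2 fold change of each measured host on the log2(FPKM + 1) scale, with the SE of the fit as a bar and the difference within each replicate number as a tick; red points are called, orange points are called only with the replicate block, grey points in neither fit. The points run from 1.97 for SNHG5 to -0.10 for SNHG10, and 21 of the 23 lie above 0.

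With the replicate number as a block, 16 of the 23 hosts were called upward and 0 downward, in a fit that called 18.9% of all tested genes upward and 40.2% in either direction. The pairing behind this block was taken from these same data, so p-values with the block may be too small. The 5 that gained a call were SNHG17, LINC02001, SNHG18, SNHG1 and SNHG19. SNHG17, the host of the SNORA71 family, was at 15.8, 18.7 and 15.1 FPKM in siNC and at 22.7, 32.4 and 24.1 FPKM in siRBM8A. Its groups did not overlap, and replicate 2 was the highest library of each (log2FC 0.63, adjusted p = 0.0637, and 0.00278 with the block). SNHG18, the host of SNORD123, was at 6.38, 6.75 and 5.80 FPKM against 8.63, 8.81 and 7.89 FPKM, again without overlap. Its log2 fold change was 0.37, with an adjusted p of 0.0726, and of 0.00596 with the block.

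SNHG1, whose introns hold a cluster of box C/D snoRNAs, was at 21.1, 18.7 and 20.7 FPKM in siNC and at 25.9, 21.3 and 26.0 FPKM in siRBM8A. The lowest siRBM8A library stood just above the highest siNC library (log2FC 0.26, adjusted p = 0.207, and 0.0138 with the block). LINC02001, named SNHG30 in RefSeq and host of SNORD7, was at 3.92, 2.13 and 3.06 FPKM against 4.93, 3.77 and 4.86 FPKM. These groups overlapped, while siRBM8A was higher within every replicate number (log2FC 0.47, adjusted p = 0.17, and 0.0136 with the block). SNHG19, the host of SNORD60, was at 23.2, 34.1 and 25.5 FPKM against 26.5, 37.5 and 33.1 FPKM. Replicate 2 was again the highest library of each group, and the groups overlapped (log2FC 0.23, adjusted p = 0.474, and 0.0333 with the block). Of the 18 alternatives, this block fit was the only 1 that called SNHG19: the adjusted p was 0.121 with limma-voom and the block and 0.108 with the GC correction and the block.

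The remaining 7 measured hosts were called in neither fit. SNHG3, the host of SNORA73A and SNORA73B, was at 14.5, 11.5 and 13.4 FPKM in siNC and at 14.5, 11.6 and 14.5 FPKM in siRBM8A (log2FC 0.039, SE 0.132, adjusted p = 0.880). SNHG10, which holds SCARNA13, was at 4.45, 3.35 and 3.26 FPKM against 3.54, 3.04 and 3.45 FPKM (log2FC -0.10, SE 0.129, adjusted p = 0.656). Both overlapped between groups, as did SNHG9, the host of SNORA78, at 1.53, 3.53 and 1.19 FPKM against 1.5, 2.57 and 1.55 FPKM (log2FC -0.047, SE 0.292). SNHG16, the host of the SNORD1 family, had means of 9.59 ± 0.813 and 10.0 ± 0.504 FPKM and a log2 fold change of 0.059 (SE 0.0993). SNHG11 and SNHG4 had log2 fold changes of 0.29 (SE 0.140) and 0.20 (SE 0.165). SNHG25 was at 1.17 ± 0.266 and 1.33 ± 0.789 FPKM on 3 to 10 fragments per library, so little can be read from its log2 fold change of 0.057 (SE 0.248). Other genes on its strand share 48.6% of its exon bases, so its level may also depend on how shared bases were counted. The difference in response between called and uncalled hosts was not tested.

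The 7 rows under the filter are described by their levels alone. SNHG20 came nearest to it, at 0.701, 0.721 and 0.718 FPKM in siNC and 1.02, 0.800 and 0.973 FPKM in siRBM8A, without overlap. SNHG21 was at 0.312 to 1.25 FPKM over the 6 libraries, and SNHG22 had means of 0.171 FPKM (siNC, SD 0.0555) and 0.0632 FPKM (siRBM8A, SD 0.0492), on 1 to 10 fragments per library. SNHG14, a very long host on chromosome 15 that holds 84 annotated snoRNA genes, stayed at or under 0.0264 FPKM, or 19 fragments. The longer SNHG28 row stayed at or under 0.111 FPKM. The shorter SNHG28 row and SNHG27 were listed at 0 in every library.

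Called and uncalled measured hosts overlapped in every feature of their loci that was examined. The 11 called hosts had transcripts of up to 3 to 13 exons (median 6), and the other 12 of up to 2 to 11 (median 3). This exon number is the largest over a host's annotated transcripts. Of those transcripts the called hosts had 3 to 30 (median 10) and the others 1 to 25 (median 3.5). Over the 23 hosts, the exon number and the log2 fold change had a Spearman rho of 0.51, given as a description of genes that share the same 6 libraries. The same measure was 0.34 for the siNC level, 0.11 for exon length, -0.14 for the number of nested snoRNA genes and -0.17 for GC content. Neighbouring hosts could differ in their values: on chromosome 1, SNHG12 had a log2 fold change of 0.60 and SNHG3 one of 0.039, and on chromosome 20, SNHG17 had 0.63 and SNHG11 0.29. These differences between neighbours were not tested.

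Several hosts are known to start with an oligopyrimidine tract (a 5′ TOP sequence), a mark of transcripts of the translation machinery. The stretches around the RefSeq transcription starts (GRCh38.p14) are shown for the called hosts that carry TATAA 15 to 40 bases before the start, for SNHG19, which carries it and had no call without the block, and for GAS5 and EPB41L4A-AS1, which have no match of either kind. Each runs 5′ to 3′ from 45 bases before the start through its first 25 transcribed bases, and capitals mark TATAA in that window and CTTT from 10 bases before the start through the first 12 transcribed bases.
SNHG5: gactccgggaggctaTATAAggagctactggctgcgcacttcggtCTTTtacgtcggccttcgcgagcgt
ZFAS1: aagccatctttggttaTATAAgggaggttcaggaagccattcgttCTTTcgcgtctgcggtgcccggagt
SNHG8: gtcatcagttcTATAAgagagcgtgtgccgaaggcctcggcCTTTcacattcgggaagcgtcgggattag
SNHG12: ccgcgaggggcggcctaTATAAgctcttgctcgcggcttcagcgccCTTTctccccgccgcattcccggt
SNHG7: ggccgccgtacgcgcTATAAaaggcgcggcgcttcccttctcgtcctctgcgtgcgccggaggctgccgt
SNHG19: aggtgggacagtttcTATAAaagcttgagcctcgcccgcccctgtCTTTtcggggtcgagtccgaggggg
GAS5: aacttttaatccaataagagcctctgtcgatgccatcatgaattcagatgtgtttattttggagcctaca
EPB41L4A-AS1: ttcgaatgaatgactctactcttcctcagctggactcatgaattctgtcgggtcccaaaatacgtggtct

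In SNHG5, ZFAS1 and SNHG19 the CTTT begins exactly at the RefSeq start, chr6:85678709-85678778, chr20:49278597-49278666 and chr16:2155334-2155403 being the windows shown. A promoter sequence from RefSeq was at hand for 19 of the 23 measured hosts, 9 of them called. CTTT at the start, searched on the transcribed strand, was found in 5 of the 9 called hosts and in 3 of the 10 others, and in 9.86% of all 35116 promoters of the table. The CTTT may lie before the RefSeq start, as in SNHG8, so these are not counts of TOP sequences. TATAA before the start was found in 5 of the 9 and in 1 of the 10, and in 3.91% of all promoters. Both searches were added after the sequences were seen. Over the whole window, from 250 bases before the start through its first 50 transcribed bases and on both strands, CTTTT, which contains CTTT, was found in 7 of the 9 and 6 of the 10, and in 48.9% of all promoters. The E-box CACGTG was found in SNHG7 and LINC02001, 2 of the 19, and in 7.26% of all promoters. The ATF4 composite element TGANGCAA and the cyclic AMP response element TGACGTCA had no match in the 19, at shares of 3.22% and 1.85% of all promoters. A match is a run of letters and shows no binding, and the RefSeq start depends on the transcript chosen. It lies 1259 bases from the GENCODE start in SNHG12, the widest gap among the measured hosts, 464 in ZFAS1, 165 in LRRC75A-AS1 and 163 in GAS5. In GAS5 the GENCODE start lies downstream of the whole window, so the lack of a match there says nothing about that start.

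Related gene classes in the same fit were set beside the hosts. Among 1011 other measured genes of the long non-coding classes there were 46 that rose and 14 that fell, or 4.55% and 1.38%, with a median log2 fold change of 0.088. With the block these numbers were 200 and 93, in a fit that called 18.9% of all tested genes upward and 21.3% downward. By class, the medians were 0.15 for 300 lincRNA genes and 0.073 for 478 antisense genes. Of 57 measured protein-coding snoRNA hosts, 1 rose and 2 fell (median 0.017), or 1.75% and 3.51%, near the 2.41% and 3.19% of all tested genes. The gene that rose was HSPA8, the constitutive cytosolic chaperone, from 411 ± 6.11 to 539 ± 17.8 FPKM (log2FC 0.39, adjusted p = 0.0450). PRKDC, the catalytic subunit of DNA-dependent protein kinase, fell from 33.0 ± 1.66 to 16.8 ± 0.875 FPKM, and EIF4G2, a translation initiation factor, fell from 106 ± 8.84 to 66.0 ± 8.55 FPKM. With the block, 12 of the 57 were called upward and 11 downward, shares near those over all tested genes in that fit. EIF4A2, an initiation factor helicase, was among the 12 (log2FC 0.65, adjusted p = 0.0973, and 0.00202 with the block).

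**Figure D3:**
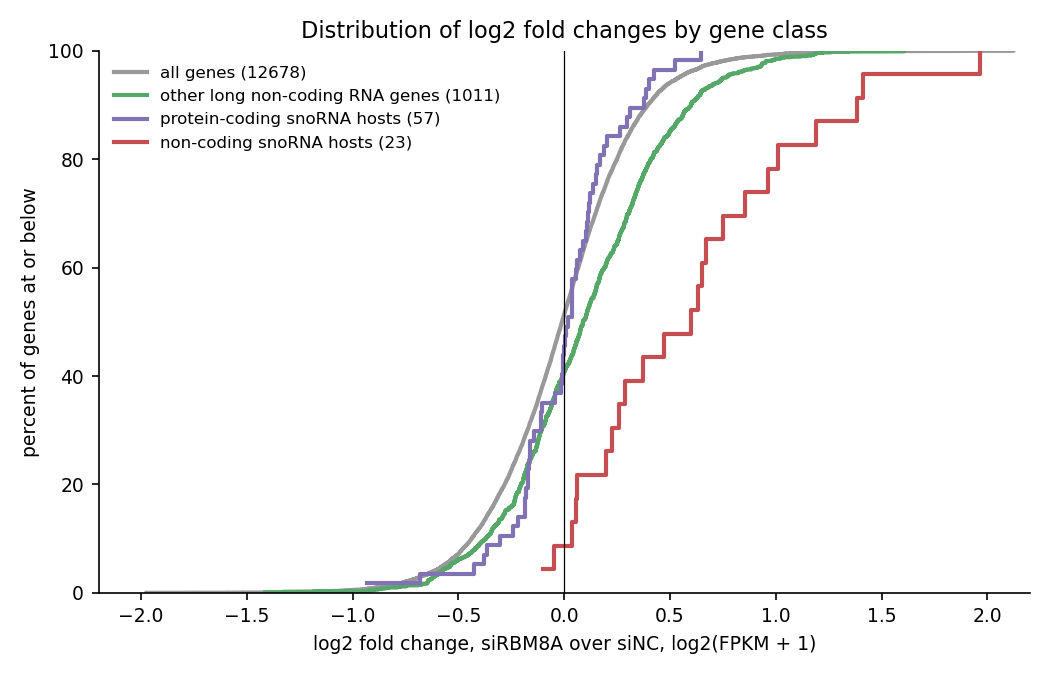
Percent of genes at or below each log2 fold change for the 23 measured non-coding hosts (red), 1011 other long non-coding RNA genes (green), 57 protein-coding snoRNA hosts (purple) and all 12678 tested genes (grey). The red curve lies to the right of the others, with a median of 0.60 beside 0.088, 0.017 and -0.011.

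Among 20 measured genes for proteins that bind snoRNAs or help to assemble their particles, 1 rose and 0 fell, a share near that over all tested genes (median log2 fold change 0.064), with 2 higher and 1 lower at an unadjusted p under 0.05, and limma-voom called 1 upward and 0 downward. With the block, 4 were called upward and 3 downward, against 18.9% and 21.3% of all tested genes. NOLC1, a nucleolar chaperone of snoRNA particles, rose from 42.2 ± 1.59 to 68.9 ± 5.03 FPKM (log2FC 0.69, SE 0.0964, adjusted p = 0.0164). GAR1, a core protein of box H/ACA particles, had a log2 fold change of -0.48 and an adjusted p of 0.102, and 0.00366 with the block.

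Of the 12 decay factors of the UPF and SMG group, 0 rose and 1 fell in limma, as in limma-voom, while 3 were higher and 2 lower at an unadjusted p under 0.05. NBAS, which acts in decay and in Golgi-to-endoplasmic reticulum traffic, fell from 5.57 ± 0.139 to 3.10 ± 0.238 FPKM (log2FC -0.68, adjusted p = 0.0160). UPF3B, which binds the exon junction complex, had a log2 fold change of 0.58 and DHX34, a helicase of the pathway, one of 0.57, with adjusted p-values of 0.0582 and 0.118. Both were called with the block (0.00372 and 0.00733). In that fit 6 of the 12 factors were higher and 2 lower, against 18.9% and 21.3% of all tested genes. Of 7 genes of the exon junction complex, RBM8A was the only one called, while CASC3 (log2FC -0.38, adjusted p = 0.0712) and RNPS1 (log2FC 0.29, adjusted p = 0.103) gained calls in opposite directions with the block (0.00762 and 0.00644).

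Mature snoRNAs, as background, carry no poly-A tail, and their genes inside the hosts could be read only in part from this table. Of 68 measured snoRNA genes of all kinds, limma and limma-voom called 0, with 5 higher and 2 lower at an unadjusted p under 0.05. Of 140 annotated genes nested in the hosts, 17 were above 0 in at least 1 library, 15 of them averaged 1 FPKM or more, and the rest were listed at 0. All 48 that share bases with an exon of their host, SNORD50B in SNHG5 and SNORD87 in SNHG6 among them, were at 0. Of the 92 that share none, 75 were at 0, most of them in SNHG14, whose own level was at or under 0.0264 FPKM. Outside SNHG14, 4 of the 21 that share none were at 0, against all 35 that share bases. There the zeros thus went mostly with overlap and cannot be read as low expression of these snoRNAs. Among these 15, limma called 0, with 2 at an unadjusted p under 0.05, and limma-voom called 0. All nested genes together held 224 to 262 fragments per siNC library and 238 to 345 per siRBM8A library. SNORD12B, inside ZFAS1, was at 23.1, 18.6 and 28.3 FPKM in siNC and at 18.8, 19.6 and 28.9 FPKM in siRBM8A, on 27 to 43 fragments per library. Its groups overlapped, with a log2 fold change of -0.060 beside 1.41 for ZFAS1, a difference that was not tested. With the block, 4 of the 15 were called, against 40.2% of all tested genes: SNORD1B, SNORA60, SNORA74D and SNORA71D. These rested on 22 to 28 fragments in all 6 libraries together, with SNORA60 lower and the other 3 higher in siRBM8A.

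No source used here states whether the counting used strand, so reads of a host and of a gene across from it on the other strand cannot be told apart where their exons overlap. Such overlap covered at least 10% of the exon bases of 7 measured hosts, 5 of them called: EPB41L4A-AS1 (49.6%), SNHG6 (29.3%), ZFAS1 (26.1%), SNHG7 (25.2%) and LRRC75A-AS1 (12%). Of the 16 measured hosts without it, 6 were called. The genes across from EPB41L4A-AS1 and SNHG6, EPB41L4A and MCMDC2, had means of at most 0.0476 FPKM in either group, levels that also depend on how shared bases were counted. FAM69B, across from SNHG7, was at 0.393 ± 0.202 and 0.898 ± 0.393 FPKM, far under SNHG7 itself. ZNFX1 had means of 38.0 ± 3.45 and 35.9 ± 3.72 FPKM (log2FC -0.080, adjusted p = 0.706).

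Counting the genes that share exon bases with a host on either strand, 8 were measured, of which 1 rose and 0 fell. With the block 1 was called upward and 3 downward, against 18.9% and 21.3% of all tested genes. LRRC75A, across from LRRC75A-AS1, was at 5.60 ± 0.527 and 3.94 ± 0.133 FPKM (log2FC -0.41, adjusted p = 0.0583, and 0.00805 with the block). TRNAU1AP, a selenocysteine tRNA-associated protein gene across from SNHG12, had a log2 fold change of -0.41 (adjusted p = 0.0787, and 0.0258 with the block). GLRX5, an iron-sulfur cluster protein gene across from SNHG10, had one of -0.27 (adjusted p = 0.136, and 0.0143 with the block). The gene that rose was SIL1, a nucleotide exchange factor of the chaperone BiP across from SNHG4, from 12.4 ± 2.41 to 22.0 ± 3.21 FPKM (adjusted p = 0.0440). Reads of SNHG3 may also be shared with RCC1 on the same strand, whose exons cover part of the 11.0% of SNHG3 bases that other genes on that strand share.

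**Figure D4:**
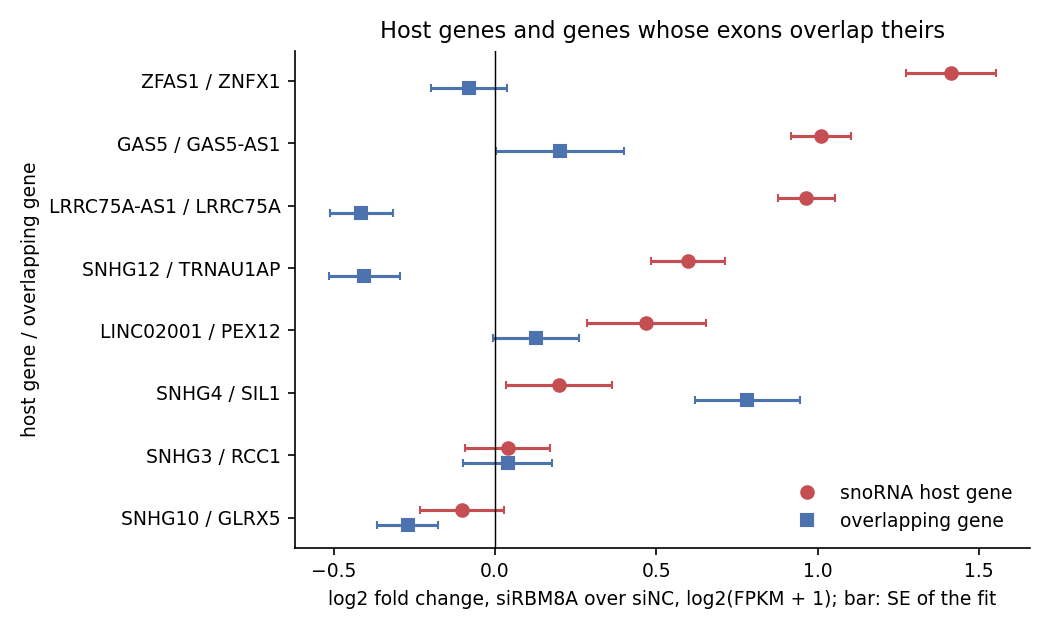
Log2 fold change of 8 hosts (red circles) and of the measured gene whose exons overlap theirs (blue squares), on the log2(FPKM + 1) scale, with the SE of the fit as a bar. ZFAS1 is at 1.41 and ZNFX1 at -0.080, and SNHG4 is at 0.20 and SIL1 at 0.78.

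How many hosts were called depended on single libraries. Without siNC replicates 1, 2 and 3 the fit called 2, 8 and 2 of the 23, and without siRBM8A replicates 1, 2 and 3 it called 9, 9 and 1. The same 6 fits called 12, 132, 8, 398, 628 and 2 of all tested genes. SNHG5 was called in all 6 and in all 18 alternatives, with adjusted p-values up to 0.0436. EPB41L4A-AS1 was called in 5 of the 6, all but the fit without siRBM8A replicate 3 (adjusted p = 0.0544). ZFAS1, SNHG7, GAS5, LRRC75A-AS1, SNHG6 and SNHG8 were called in 3 of the 6, losing the call without siNC replicate 1, siNC replicate 3 or siRBM8A replicate 3, SNHG15 in 2, and SNHG26 and SNHG12 in none. All 11 kept a positive log2 fold change in every alternative. Where libraries were only left out this was fixed beforehand, because the groups of these 11 hosts do not overlap. The log2 fold change varied most in SNHG26, from 0.55 to 1.02 (limma-voom) around the reported 0.67. Next came EPB41L4A-AS1, from 1.35 to 1.63, and SNHG7, from 1.03 to 1.30, while that of SNHG15 ran from 0.52 to 0.76. These ranges mix scales, because limma-voom does not add 1 FPKM. With a pseudocount of 0.1 FPKM in limma, SNHG26 had 0.96 and EPB41L4A-AS1 1.59. The value varied least in LRRC75A-AS1, from 0.94 to 1.01, and ranged from 0.96 to 1.12 in GAS5.

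**Figure D5:**
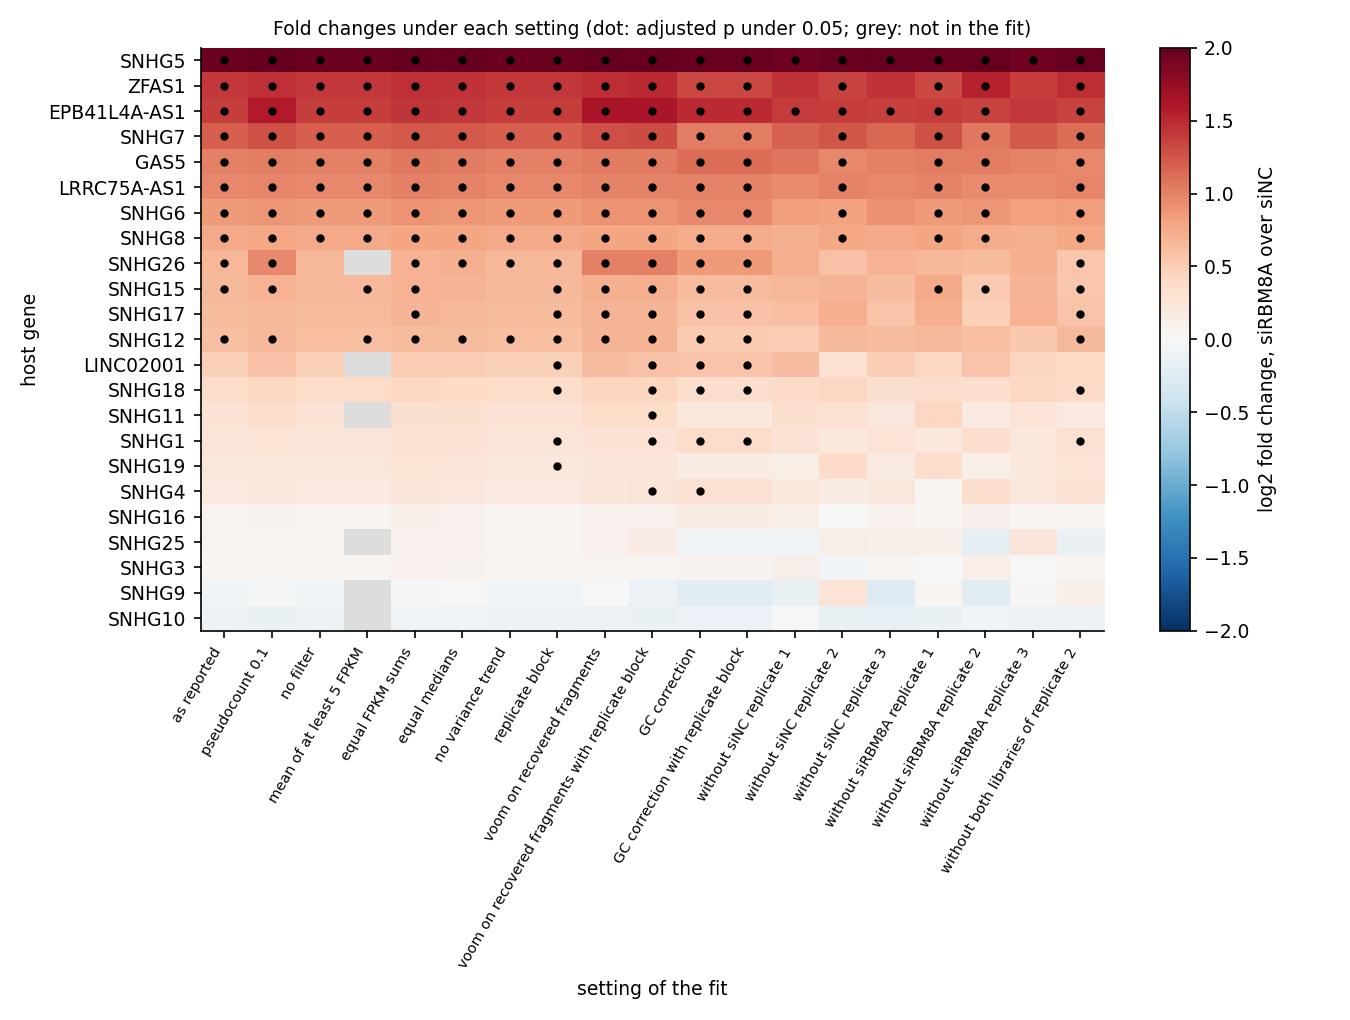
Log2 fold change of each measured host (rows) in the reported fit and the 18 alternatives (columns), as colour from -2 to 2, with a dot where the adjusted p was under 0.05 and grey where the host was not in the fit. SNHG5 carries a dot in every column, while the 3 columns without siNC replicate 1, siNC replicate 3 and siRBM8A replicate 3 hold only 2, 2 and 1 dots.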

How the data were processed

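Poly-A selected RNA from 6 AGS cultures was sequenced, per the labels' protocols. The authors deposited FPKM for 58735 genes. HISAT2, StringTie and GRCh38 are named, without versions or roles, per the submitters' processing notes. All identifiers matched GENCODE 29, the source of classes, exons and GC content. FPKM times exon length, divided by the smallest step of its library, came out whole for 100% of values (tolerance 0.001 fragments). The fragments recovered so served for depth and 1 kind of alternative.

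Groups follow the sample titles. Log2(FPKM + 1) was compared with limma 3.58.1 in R 4.3.3 (variance trend, two-sided) for the 12678 genes that averaged 1 FPKM or more. Calls were made at a Benjamini-Hochberg adjusted p under 0.05 over all of them. The fold change is on that scale and understates changes of low genes. Where cultures were not independent, p-values measure only the spread between these samples. The labels call the replicates biological. No 2 libraries of a group agreed within sampling noise (chi-square per degree of freedom 3.96 to 48.0).

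The hosts and lists were chosen with earlier results of these data known. All hosts are named. Values in every library are given for called hosts, for the 5 called only with the block, for the 5 most abundant and for the 3 with the lowest fold change. From each list up to 4 called genes and 2 others with large fold changes are named, and genes overlapping a host are named by position. After subtracting group means, same-numbered libraries correlated across genes at 0.507, 0.663 and 0.102, all above 0.1, so the numbers were taken to pair the libraries. This pairing comes from the data, not the labels, and is weak for replicate 3: siNC replicate 3 correlated better with siRBM8A replicate 1 (0.258), and siRBM8A replicate 3 with siNC replicate 1 (0.187). Because the same data chose the block, its p-values may be too small and are no separate support. Pairing and GC differences between libraries were not told apart: the GC correction without the block called 4049 genes. FPKM were simulated for siRBM8A against siNC (12686 genes) with independent libraries and a dispersion of 0.02 in every gene. On these, limma recovered 12.3% of 1.5-fold, 72.3% of 2-fold and 100% of 4-fold changes, with 11 false calls among 127. The simulation held no replicate or GC effect: the block gave 133 calls there, while in the real data it gave 5096 in place of 709. These rates therefore do not carry over to the real libraries. Alternatives covered the pseudocount, filter, scaling, variance model, replicate block, GC correction (loess, span 0.3), limma-voom and leaving out libraries. Python 3.11.15, pandas 2.3.3, numpy 2.4.6 and matplotlib 3.10.9 were used. Promoters are from RefSeq (GRCh38.p14).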

Additional observations from a re-analysis of the deposited data

How the results depend on the processing

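The count of 11 hosts called higher was within 1.5 times under most alternatives. It was 17 with limma-voom and the replicate block (SNHG11 and SNHG4 gained and SNHG19 lost against the block alone), and 6 of 16 without the hosts overlapped on the opposite strand, a choice made after the data were seen. It ranged from 1 to 9 when 1 library was left out. By groups that do not overlap, also added later, 14 hosts were higher. No host was called lower under any alternative (0 in each). The replicate block gave 16 hosts and 5096 genes in place of 11 and 709, and among the hosts changed the call of SNHG17, LINC02001, SNHG18, SNHG1 and SNHG19 and no other. The count of all called genes was also 268 with no filter, 6236 with limma-voom and the block, 4049 with the GC correction, 5155 with both GC correction and block, 1827 without both libraries of replicate 2, and 2 to 628 when 1 library was left out. Upward calls were 43.0% of the 709 and 59.0% of 793 after scaling to equal FPKM sums. With limma-voom, which does not add 1 FPKM, the hosts' median log2 fold change of 0.60 was 0.67, without and with the block. It was 0.52 to 0.65 when 1 library was left out. RBM8A ranged from -2.05 to -1.83 there, and its adjusted p was 0.0544 without siRBM8A replicate 3, in a range over the alternatives from 8.67e-12. Signs turned only in hosts without a call. In the called hosts they could not turn when libraries were left out, because the groups of those hosts do not overlap. SNHG25 turned to -0.084 with the GC correction, without and with the block, and to -0.14 without both libraries of replicate 2, where SNHG9 turned to 0.10. When 1 library was left out, SNHG25 ranged from -0.20 to 0.25, SNHG9 from -0.26 to 0.27, SNHG3 from -0.048 to 0.14 and SNHG10 from -0.17 to 0.011. Depth limits SNHG25, SNHG9 and the rows under the filter most. The cause of these shifts was not tested.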
